A study of Mus musculus with 15 samples.

Results

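A set of 10 genes of the BMP-ALK1 signalling route of endothelium was followed through 15 RNA-seq libraries of embryonic mouse ventricle. They were Tmem100, Acvrl1, Eng, Bmpr2, Bmp10, Id1, Id2, Id3, Smad6 and Smad7, which are 10 of the 78317 genes in the count tables, and all 10 were among the 20269 with enough counts to be tested. Tmem100 was chosen by its level in the libraries labelled PAS control, where it was high, and the other 9 were chosen for their known place in the same pathway. The values of Tmem100 in any comparison that holds PAS controls are therefore given as a description without a test.

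In endothelial cells, the ligands BMP9 and BMP10 bind the type I receptor ALK1 (encoded by Acvrl1) with the type II receptor BMPR2, and endoglin (Eng) presents the ligand to them. The receptors phosphorylate Smad1 and Smad5, which enter the nucleus and raise the Id genes and the inhibitory Smads. Tmem100, a small membrane protein of arterial endothelium and endocardium, is known as a gene induced by ALK1 signals, and mouse embryos without it die with vascular and cardiac defects. Bmp10 is made in the embryonic heart by trabecular and atrial cardiomyocytes.

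The study deleted parts of Atf4, a stress-response transcription factor, in cardiomyocytes of C57BL/6 mice. In the PAS line, loxP sites flank the polyadenylation signal of Atf4, and in the CDS line they flank exons 2 and 3. Xmlc2-Cre, a driver active in cardiomyocytes, deleted the flanked part in the knockouts, so endothelial cells were not the target, and the labels do not say whether the controls carried Cre. Hearts were taken at embryonic day 11.5 (E11.5), and the libraries were labelled PAS knockout (n = 4), PAS control (n = 3), CDS knockout (n = 4) and CDS control (n = 4), all with batch label 1. The labels conflict on the source, since the design text names ventricles and a stranded poly(A) kit and the protocol for extraction speaks of cultured cortical neurons and depletion of ribosomal RNA. Cardiomyocyte markers summed to 35035 to 41533 CPM (counts scaled to the size of the library) in every library, and lung bud markers to 1.31 to 2.88 CPM.

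Atf4 itself averaged 286 ± 18.8 CPM in the libraries labelled PAS knockout (SD, n = 4), against 97.1 ± 4.27 CPM in PAS controls (SD, n = 3), which is higher where a knockout is labelled, so directions in the PAS line rest on its labels. In the CDS line it averaged 44.5 ± 3.56 CPM over 4 knockouts and 114 ± 1.99 CPM over 4 controls (± SD). Total counts ran from 23682810 to 29315724 in PAS knockouts, from 22623499 to 27041436 in PAS controls, from 31410559 to 43060454 in CDS knockouts and from 30376847 to 46472141 in CDS controls. CDS knockout 3 stood apart from the other CDS knockouts in its counts (chi-square per degree of freedom 43.0 to 53.4, against 12.1 or less for other pairs within a group). Neural, choroid plexus and liver markers summed to 29.3 to 33.9 CPM in the PAS libraries. CDS knockouts 3 and 4 held 188 and 252 CPM of these markers, against 48.4 to 75.4 CPM in the other CDS libraries. Without these 2 libraries none of the 10 genes was called in the comparisons that hold CDS knockouts.

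Tmem100 (chromosome 11, 89921174 to 89927334, plus strand, GRCm39, ENSMUSG00000069763.4) was a gene of moderate level in ventricle. The libraries labelled PAS knockout held 17.6, 20.0, 19.3 and 16.0 CPM. PAS controls held 37.9, 27.5 and 24.6 CPM. The 3 PAS controls stood above every other library, and they differed among themselves more than the libraries of any other group did. CDS knockouts held 15.6, 18.6, 17.8 and 16.6 CPM, against 19.0, 18.7, 16.4 and 17.2 CPM in CDS controls, and these groups overlapped.

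The mean of Tmem100 was 18.2 ± 1.78 CPM over the 4 PAS knockouts, 30.0 ± 7.01 CPM over the 3 PAS controls, 17.1 ± 1.29 CPM over the 4 CDS knockouts and 17.8 ± 1.23 CPM over the 4 CDS controls (± SD). In the fit, the PAS knockouts lay at 0.605 times the PAS controls (log2 change -0.72), and the PAS controls at 1.69 times the CDS controls (log2 change 0.76). Both descriptions use the same 3 PAS controls. Just inside the choice, the lowest PAS control was 1.23 times the highest of the other 12 libraries, which ran from 15.6 to 20.0 CPM. PAS control 1 was 1.54 times PAS control 3, and without PAS control 1 the log2 changes were -0.52 for PAS knockouts against PAS controls and 0.55 for PAS controls against CDS controls.

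**Figure D1:**
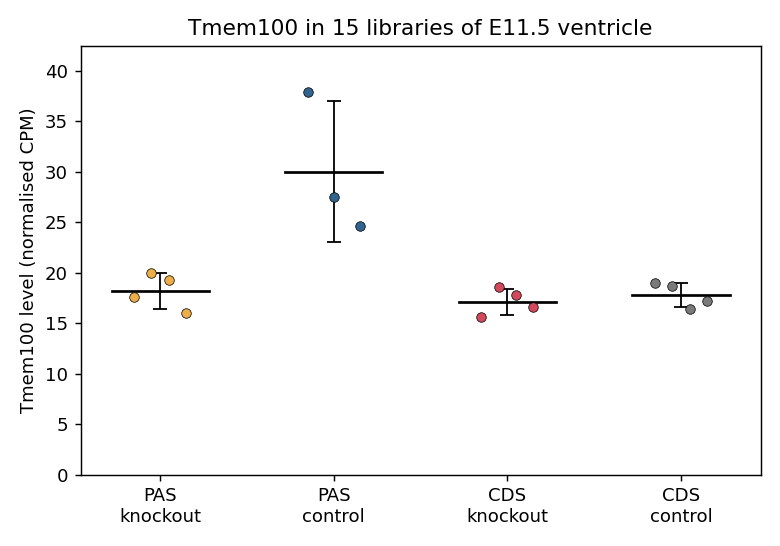
Normalised CPM of Tmem100 (y axis) in each library (points) of the 4 groups (x axis), with the mean (long bar) and SD (error bar). The 3 PAS controls sit at 24.6 to 37.9 CPM and the other 12 libraries at 15.6 to 20.0 CPM.

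Where PAS controls take no part, Tmem100 was tested. It had a log2 change of -0.05 ± 0.11 (SE) in CDS knockouts against CDS controls, with a 95% interval of -0.30 to 0.19 and an adjusted p of 1.00 in edgeR's quasi-likelihood test. PAS knockouts against CDS knockouts gave 0.09 ± 0.11, with an interval of -0.16 to 0.33 and an adjusted p of 0.807 in the same test. Neither difference was detectable against the spread between libraries.

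Endothelial content was set beside these levels, since in bulk tissue more cells of a type and more RNA per cell cannot be told apart. The summed level of 20 endothelial and endocardial markers was 1939 to 2024 CPM in PAS knockouts, 1787 to 2043 CPM in PAS controls, 1842 to 1983 CPM in CDS knockouts and 2006 to 2104 CPM in CDS controls. Among them, Pecam1 ran from 162 to 194 CPM and Cdh5 from 256 to 319 CPM over all libraries. Per 1000 CPM of these markers, Tmem100 reached 9.24 ± 1.02 CPM over the 4 PAS knockouts, 15.5 ± 2.66 CPM over the 3 PAS controls, 8.91 ± 0.70 CPM over the 4 CDS knockouts and 8.69 ± 0.44 CPM over the 4 CDS controls (± SD). The PAS controls held 18.6, 14.2 and 13.8 CPM of Tmem100 per 1000 CPM of endothelial markers, and no other library passed 10.3. These ratios rest on the same PAS control values of Tmem100 that chose it, and the part of endothelial content in its level was not tested.

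Neither the ligand Bmp10 nor any of the receptors Acvrl1, Eng and Bmpr2 was called in a comparison. Per kilobase of exon, which allows genes to be compared, Eng averaged 71.8 CPM over the 15 libraries, Bmp10 64.2, Bmpr2 11.2 and Acvrl1 1.40, beside 11.4 for Tmem100. Acvrl1 (chromosome 15) was the lowest of all 10 genes.

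Acvrl1, the ALK1 receptor, had 4.64, 8.81, 6.05 and 5.09 CPM in PAS knockouts. PAS controls had 5.05, 4.59 and 8.50 CPM. CDS knockouts had 6.16, 4.58, 4.57 and 6.04 CPM and CDS controls 6.35, 7.39, 6.10 and 5.48 CPM. One library in each PAS group, PAS knockout 2 and PAS control 3, was high and the groups overlapped. Its counts were few, from 105 to 266 in a library. The log2 change was 0.03 ± 0.24 for PAS knockouts against PAS controls and -0.07 ± 0.23 for PAS controls against CDS controls, and the interval of the second ran from -0.58 to 0.45.

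Eng, the co-receptor endoglin (chromosome 2), averaged 288 ± 24.7 CPM over the 4 PAS knockouts, 284 ± 27.1 CPM over the 3 PAS controls, 283 ± 18.4 CPM over the 4 CDS knockouts and 305 ± 7.97 CPM over the 4 CDS controls (± SD). The 3 PAS controls were at 306, 293 and 254 CPM. The other groups ran from 259 to 315 CPM in PAS knockouts, 266 to 303 CPM in CDS knockouts and 296 to 312 CPM in CDS controls. Bmpr2, the type II receptor (chromosome 1), averaged 206 ± 11.7 CPM over the 4 PAS knockouts, 197 ± 9.28 CPM over the 3 PAS controls, 202 ± 7.82 CPM over the 4 CDS knockouts and 197 ± 14.4 CPM over the 4 CDS controls (± SD). Its log2 change was -0.01 ± 0.05 for PAS controls against CDS controls, and its libraries overlapped in every comparison.

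Bmp10, the heart-made ligand (chromosome 6), had 262, 295, 314 and 270 CPM in PAS knockouts, and 306, 295 and 246 CPM in PAS controls. CDS knockouts had 271, 279, 269 and 283 CPM, against 296, 343, 285 and 312 CPM in CDS controls. The CDS knockouts lay below all CDS controls, and the PAS groups overlapped. Groups did not overlap for 2.80% of all tested genes in that comparison, and Bmp10 was the sole member of the 10 to show it. The log2 change was -0.17 ± 0.07 (unadjusted p 0.0313, adjusted p 1.00 by edgeR's quasi-likelihood test), so the change did not pass over all genes. PAS knockouts against PAS controls gave 0.01 ± 0.08 for Bmp10.

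The Id genes encode inhibitors of basic helix-loop-helix factors and are direct targets of Smad1 and Smad5. Id1 (chromosome 2) averaged 23.7 ± 5.28 CPM over the 4 PAS knockouts, 25.8 ± 3.85 CPM over the 3 PAS controls, 27.98 ± 3.16 CPM over the 4 CDS knockouts and 25.2 ± 3.31 CPM over the 4 CDS controls (± SD). Id2 (chromosome 12) averaged 103 ± 12.1 CPM over the 4 PAS knockouts, 99.9 ± 2.33 CPM over the 3 PAS controls, 107 ± 5.96 CPM over the 4 CDS knockouts and 101 ± 7.82 CPM over the 4 CDS controls (± SD). Neither gene differed detectably in PAS controls, where their log2 changes against CDS controls were 0.03 ± 0.17 and -0.01 ± 0.08.

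Id3 (chromosome 4) had 71.4, 55.2, 63.1 and 59.2 CPM in PAS knockouts and 61.8, 63.9 and 60.2 CPM in PAS controls. CDS knockouts had 63.7, 72.7, 78.8 and 68.2 CPM, against 56.4, 62.8, 70.5 and 59.5 CPM in CDS controls. The groups overlapped in both lines. The log2 change was 0.18 ± 0.08 in CDS knockouts against CDS controls (unadjusted p 0.0426, adjusted p 1.00 by edgeR's quasi-likelihood test) and -0.19 ± 0.08 in PAS knockouts against CDS knockouts (unadjusted p 0.0417, adjusted p 0.343). With no filter on low counts the second was called, at -0.20 with an adjusted p of 0.00972.

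Smad6 and Smad7 encode the inhibitory Smads that feed back on the receptors. Smad6 (chromosome 9) averaged 73.0 ± 12.0 CPM over the 4 PAS knockouts, 78.1 ± 7.24 CPM over the 3 PAS controls, 83.3 ± 11.2 CPM over the 4 CDS knockouts and 74.5 ± 7.19 CPM over the 4 CDS controls (± SD). Smad7 (chromosome 18) averaged 39.3 ± 5.30 CPM over the 4 PAS knockouts, 42.5 ± 1.42 CPM over the 3 PAS controls, 45.04 ± 3.30 CPM over the 4 CDS knockouts and 39.4 ± 6.54 CPM over the 4 CDS controls (± SD). Both overlapped in every comparison, and the log2 changes of PAS controls against CDS controls were 0.07 ± 0.14 and 0.10 ± 0.12. Per kilobase the targets ran in the order Id2 (42.2 CPM), Id3 (36.0), Smad6 (24.1), Id1 (22.1) and Smad7 (9.18).

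**Figure D2:**
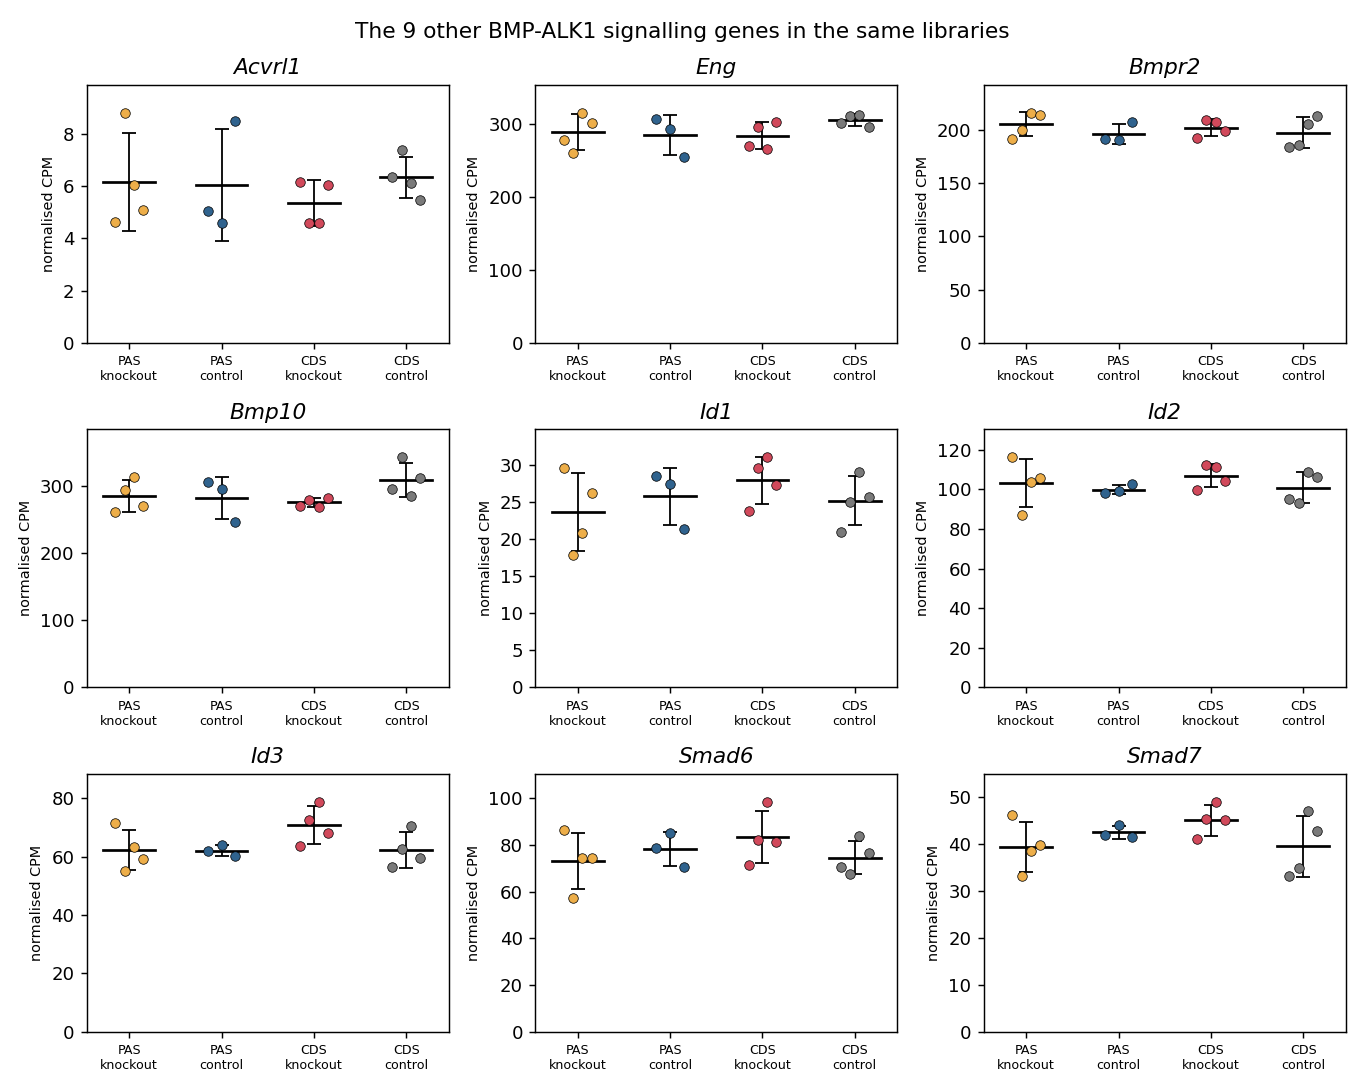
Normalised CPM (y axes, from 0) of the 9 other genes in each library (points) of the 4 groups (x axes), with the mean (long bar) and SD (error bar). The 3 PAS controls lie within or beside the range of the other libraries in each panel, as for Eng at 254 to 306 CPM.

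Of the 9 genes other than Tmem100, edgeR called 0 in each of the 5 comparisons, at a Benjamini-Hochberg adjusted p under 0.05 over all tested genes. The share of all genes called was near 0 too, and the count of the members is near that background. It was 0.00987% for PAS knockouts against PAS controls, 0.0543% for CDS knockouts against CDS controls, 0.143% for PAS controls against CDS controls, 1.17% for PAS knockouts against CDS knockouts, and 0.00493% for the difference between the knockout changes of the lines. DESeq2 and limma-voom called 0 of the 9 as well.

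At an unadjusted p under 0.05, 2 of the 9 passed in CDS knockouts against CDS controls, where 2.62% of all genes did, and 1 of the 9, Id3, passed in PAS knockouts against CDS knockouts, where 13.5% of all genes did. None passed in PAS knockouts against PAS controls (5.24% of all genes), in PAS controls against CDS controls (9.60%) or in the difference between the lines (4.16%). Groups of these 9 genes overlapped in the comparisons of PAS knockouts with PAS controls, PAS controls with CDS controls and PAS knockouts with CDS knockouts, where 4.59%, 9.46% and 8.86% of all genes did not overlap. The median log2 change of the 9 was 0.01 for PAS knockouts against PAS controls, 0.08 for CDS knockouts against CDS controls and -0.01 for PAS controls against CDS controls, beside -0.00, -0.00 and 0.00 over all tested genes. The medians cover members on both sides of 0, since in CDS knockouts against CDS controls the log2 changes ran from -0.24 for Acvrl1 and -0.17 for Bmp10 to 0.18 for Id3 and 0.19 for Smad7.

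**Figure D3:**
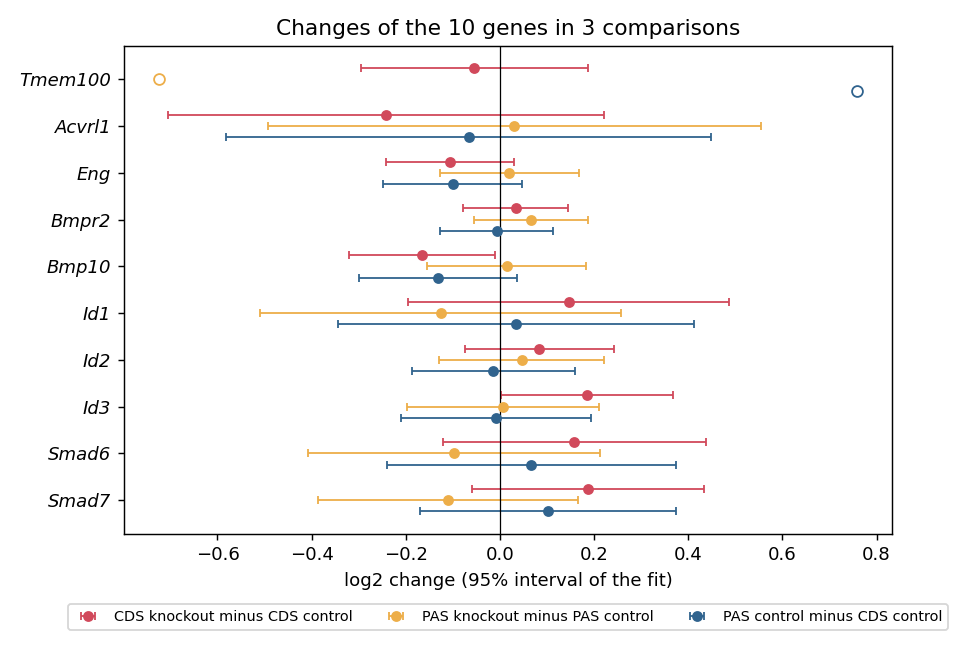
Log2 change (x axis) of the 10 genes (y axis) in 3 comparisons (colours), with bars for the 95% interval. The open circles of Tmem100 have no interval because its level chose it, at -0.72 and 0.76, and the intervals of the other genes reach from -0.70 to 0.55.

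Whether the pathway follows Tmem100 from library to library was asked with the group means removed, since the choice of Tmem100 used the mean of the PAS controls. Over 15 libraries, 0 of the 9 genes passed in an exact two-sided permutation of libraries within groups with Benjamini-Hochberg adjustment over the 9 relations. Bmp10 came nearest, with a Pearson r of 0.66 (exact permutation p 0.0579, adjusted p 0.521) and a Spearman rho of 0.60 (exact permutation p 0.0637, adjusted p 0.573). Without PAS controls 1 and 3, the 2 libraries farthest from the median of Tmem100, its r was 0.56, and relative to the endothelial sum 0.49. Of all other tested genes, 1.77% followed Tmem100 with an r at least that of Bmp10.

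Eng had an r of 0.32 with Tmem100, which was -0.14 without PAS controls 1 and 3, and Acvrl1 had -0.13. The targets were near 0 or below: Id1 at 0.00, Id3 at -0.03, Smad6 at -0.08, Smad7 at -0.30 and Id2 at -0.32, and Bmpr2 was at -0.28. With Bmp10 included, the adjusted p of the 9 relations ran from 0.521 to 0.993 in the exact permutation. For the 5 targets, PAS control 1, the library with the most Tmem100, held 28.6 CPM of Id1, 98.2 CPM of Id2, 61.8 CPM of Id3, 78.7 CPM of Smad6 and 41.9 CPM of Smad7, all inside the range of the other libraries. In bulk tissue the cells that held the RNA of the targets cannot be told apart, so these values are not a measure of endothelial cells alone.

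The 5 targets did move with one another. All 45 pairs of the 10 genes were compared in the same way, a choice made after the values were seen, and 14 passed at an adjusted p under 0.05. Of these, 10 were all the pairs among Id1, Id2, Id3, Smad6 and Smad7, with r from 0.75 to 0.89. Id2 with Smad7 had 0.89 (exact permutation, adjusted p 0.0148), Smad6 with Smad7 0.86 (exact permutation, adjusted p 0.00461) and Id1 with Smad7 0.82 (exact permutation, adjusted p 0.00461). Of all other tested genes, between 0.0345% and 1.00% followed one of the 5 as closely as another of the 5 did.

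The summed level of 8 cushion and mesenchymal markers was set beside the target Smad6 within groups. In PAS knockouts it was 3477, 2919, 3376 and 3316 CPM, where Smad6 had 86.4, 57.2, 74.2 and 74.3 CPM. In PAS controls it was 3194, 3501 and 3294 CPM, where Smad6 had 78.7, 85.0 and 70.6 CPM. PAS knockout 2 was lowest and PAS knockout 1 highest in both measures, and PAS control 2 was highest in both. In CDS knockouts the sum was 2919, 3232, 3523 and 2973 CPM, where Smad6 had 71.5, 81.9, 98.5 and 81.2 CPM. In CDS controls it was 2630, 2906, 3206 and 3223 CPM, where Smad6 had 70.6, 67.4, 83.8 and 76.3 CPM. CDS knockout 3 was highest in both, and CDS controls 1 and 2 were the lower pair in both, as they were for Smad7. Elsewhere the order differed. PAS control 3 had a higher sum than PAS control 1 (3294 against 3194 CPM) but less Smad6 (70.6 against 78.7 CPM). The CDS control with the highest sum, 3223 CPM, had less Smad6 (76.3 CPM) than the CDS control at 3206 CPM (83.8 CPM). Vcan alone averaged 1796 CPM over all libraries, so the sum rested largely on this gene. The part of mesenchymal content in the relations between the targets was not tested.

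The other 4 pairs that passed were negative, and each held Acvrl1. Acvrl1 ran against Id1 (r -0.82, exact permutation, adjusted p 0.0148), Smad6 (r -0.82, adjusted p 0.00854), Id2 (r -0.65, adjusted p 0.0401) and Smad7 (r -0.63, adjusted p 0.0177), and with Id3 it had -0.56 (adjusted p 0.0997). Of all other tested genes, 0.701% ran against Acvrl1 at least as strongly as Id1 did, and 0.725% as strongly as Smad6. For Id2, Smad7 and Id3 these shares were larger, at 5.82%, 6.87% and 10.4%. By Spearman's rho, 7 positive and 4 negative pairs passed. Acvrl1 was highest in a pair of libraries where Id1 and Smad6 were low: PAS knockout 2 had 8.81 CPM of Acvrl1 with 17.9 CPM of Id1 and 57.2 CPM of Smad6, and PAS control 3 had 8.50 CPM of Acvrl1 with 21.4 CPM of Id1 and 70.6 CPM of Smad6. The same 2 libraries held the least atrial transcript, 2827 and 2973 CPM against at least 3164 CPM in the other 13, and the least epicardial transcript, 289 and 285 CPM against at least 315 CPM, and the part of this in the relation was not tested. Without these 2 libraries, 5 positive pairs and 1 negative pair passed. The r among the targets then ran from 0.73 to 0.92 over 13 libraries. Acvrl1 had -0.65 with Id1, -0.73 with Smad6, -0.83 with Id2, -0.64 with Smad7 and -0.47 with Id3, so the r fell less than the number of calls. Relative to the endothelial sum, 9 positive pairs and 1 negative pair passed.

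**Figure D4:**
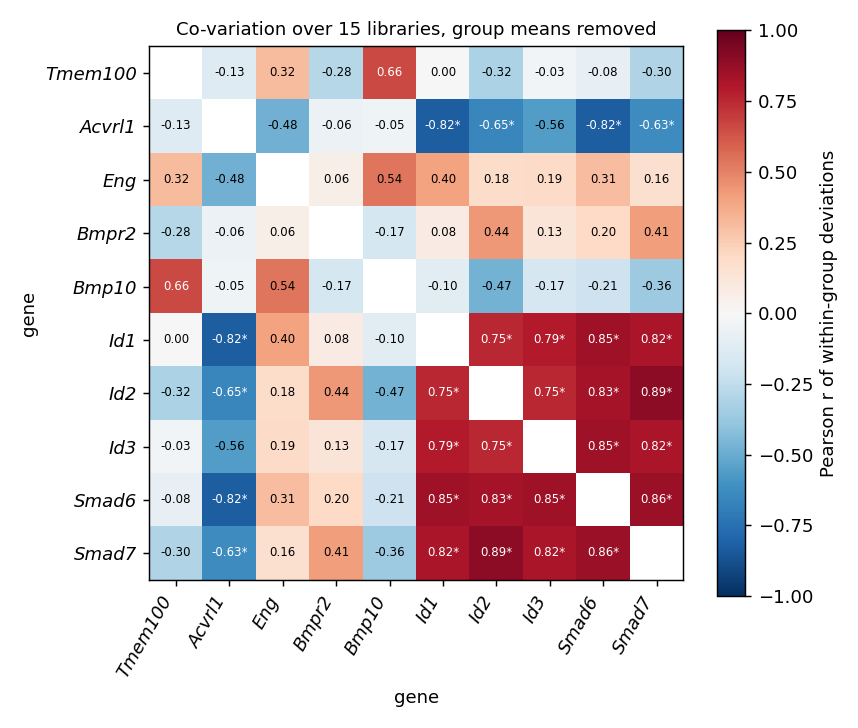
Pearson r (colour and number) between each pair of the 10 genes (both axes) over 15 libraries with group means removed, where a star marks an adjusted p under 0.05 over 45 pairs in an exact permutation within groups. The block of Id1, Id2, Id3, Smad6 and Smad7 holds r of 0.75 to 0.89, and the row of Tmem100 holds no star.

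Of the 5 co-varying targets, 3 had a promoter in the RefSeq table, and these are shown because Smad proteins are known to bind GGCGCC, the palindrome GTCTAGAC and its core GTCT. The stretches are read on the strand of the gene from RefSeq's GRCm38.p6, at chr12:25096093-25096342 (minus strand) for Id2, chr4:136143572-136143821 (plus strand) for Id3 and chr9:64022050-64022309 (minus strand) for Smad6. Capitals mark those letters on either strand, AGAC being GTCT read on the other one.
Id2: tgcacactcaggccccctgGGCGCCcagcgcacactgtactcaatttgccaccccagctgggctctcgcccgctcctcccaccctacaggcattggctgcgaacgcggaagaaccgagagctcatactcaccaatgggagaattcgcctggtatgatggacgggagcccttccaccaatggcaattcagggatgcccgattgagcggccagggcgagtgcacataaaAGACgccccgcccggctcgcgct
Id3: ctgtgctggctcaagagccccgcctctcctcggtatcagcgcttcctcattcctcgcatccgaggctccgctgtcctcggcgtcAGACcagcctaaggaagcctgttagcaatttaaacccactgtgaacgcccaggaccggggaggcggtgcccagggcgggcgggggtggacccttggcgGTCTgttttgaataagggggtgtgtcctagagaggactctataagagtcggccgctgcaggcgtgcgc
Smad6: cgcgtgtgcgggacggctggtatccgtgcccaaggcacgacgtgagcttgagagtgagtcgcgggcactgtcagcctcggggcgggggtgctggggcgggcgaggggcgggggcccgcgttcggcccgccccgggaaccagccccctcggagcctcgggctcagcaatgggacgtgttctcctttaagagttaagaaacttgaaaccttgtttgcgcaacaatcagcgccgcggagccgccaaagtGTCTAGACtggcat

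GGCGCC stood in the Id2 stretch 231 bases before the start, at -231 where 0 is the first base of the gene, and such a match occurs in 11.9% of the 32851 promoters of 300 bases in the table. GTCTAGAC began at -4 in Smad6 and occurs in 0.213% of those promoters. GTCT alone occurs in 88.0% of them and overlaps the palindrome in Smad6. It was in Id2 at -23 and in Id3 at -166 and -68 and, past the stretch shown, at 21. Of the other members in the table, Bmpr2 held GGCGCC at -105, Eng held GTCT at -213 and -127, and Bmp10 held GTCT at -96, -51 and 44. The combined element, GGCGCC and GTCT with 5 bases of any kind between them, found in 0.0731% of the promoters, was in none of these 6. A match is a description of the letters and not a measured binding site.

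The rest of the pathway was read from 7 lists of 61 tested genes, and edgeR called 0 of the 61 in each of the 5 comparisons. DESeq2 and limma-voom also called 0. At an unadjusted p under 0.05, 0 passed in PAS knockouts against PAS controls, 4 in CDS knockouts against CDS controls, 2 in PAS controls against CDS controls, 6 in PAS knockouts against CDS knockouts and 1 in the difference between the lines. Over all tested genes these shares were 5.24%, 2.62%, 9.60%, 13.5% and 4.16% in the same order. With no filter on low counts, which called 201 genes in PAS controls against CDS controls and 500 in PAS knockouts against CDS knockouts, Hey2 was called in PAS controls against CDS controls (log2 change -0.18, adjusted p 0.0405), and Bambi (-0.20, adjusted p 0.00881) and Hes1 (-0.26, adjusted p 0.00558) in PAS knockouts against CDS knockouts. Hey2 and Hes1 encode transcriptional repressors of the Notch route and Bambi a decoy receptor.

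Other ligands gave a median log2 change of -0.01 in PAS knockouts against PAS controls and 0.15 in PAS controls against CDS controls over 10 genes. The median was also 0.15 in CDS knockouts against CDS controls. Bmp7, an abundant ligand of the myocardium, averaged 202 ± 4.41 CPM over the 4 PAS knockouts and 198 ± 8.84 CPM over the 3 PAS controls (± SD). Tgfb2 averaged 94.9 ± 8.07 CPM in PAS knockouts and 96.5 ± 9.82 CPM in PAS controls. Neither differed beyond the spread between libraries.

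Other receptors gave a median of -0.01 in PAS knockouts against PAS controls over 8 genes, where Bmpr1a, a type I receptor, had 0.04 ± 0.04 and Tgfbr3, a co-receptor, 0.04 ± 0.11. Among the 6 Smads that carry or partner the signal, Smad5, which acts for BMP receptors, had 0.02 ± 0.04 and Smad2, which acts for TGF-beta receptors, -0.04 ± 0.05. The inhibitors, 12 of 13 tested, gave a median of 0.02, with 0.01 ± 0.04 for the corepressor Ski and 0.03 ± 0.06 for the extracellular modulator Twsg1. None of these was called.

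Further genes known to be induced by BMP or ALK1 signals gave a median of -0.04 in PAS knockouts against PAS controls and 0.10 in PAS controls against CDS controls over 12 genes. Tbx20, a cardiac transcription factor, had log2 changes of -0.03 ± 0.10 and 0.13 ± 0.10 in the 2 comparisons, and Gja5, a connexin of arteries and trabeculae, -0.09 ± 0.13 and 0.05 ± 0.13. The 5 genes known to be lowered by ALK1 signals in endothelium gave medians of 0.04 and 0.32, with 3 above 0 and 2 below in each comparison. Of them, Kdr, a VEGF receptor, had 0.04 ± 0.06 and -0.07 ± 0.06. Cxcr4, a chemokine receptor at 3.72 ± 0.67 CPM over the 4 PAS knockouts and 4.43 ± 0.82 CPM over the 3 PAS controls (± SD), had -0.25 ± 0.22 and 0.36 ± 0.22. In the Notch list of 8 genes the medians were 0.01 and -0.11. There Notch1 had 0.06 ± 0.13 and -0.10 ± 0.13, and its partner Rbpj 0.06 ± 0.04 in both.

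Among markers of the tissue, Egfl7, a secreted endothelial protein, was lower in PAS knockouts, at 72.7 ± 3.13 CPM, than in CDS knockouts, at 83.6 ± 4.94 CPM (SD, n = 4 each; log2 change -0.20 ± 0.05, adjusted p 0.0471 by edgeR's quasi-likelihood test), the single call among 20 endothelial markers. Most of the 20 went the other way, with 13 log2 changes above 0 and 7 below, and their median was 0.03. Over all tested genes, 1.17% were called in this comparison. Nppb, a natriuretic peptide of trabecular myocardium, was also lower in PAS knockouts, at 126 ± 15.2 CPM, than in CDS knockouts, at 188 ± 20.7 CPM (log2 change -0.58 ± 0.11, adjusted p 0.0308). The genes named from the marker lists by the same rule that changed most in this comparison were Ttr, a transport protein of choroid plexus and liver, and Enpp2, a secreted enzyme abundant in choroid plexus. Ttr had 0.302 to 0.550 CPM in PAS knockouts and 13.8 to 154 CPM in CDS knockouts (log2 change -7.35 ± 1.17, adjusted p 0.0144). Enpp2 had 0.720 to 1.40 CPM in PAS knockouts and 5.88 to 64.2 CPM in CDS knockouts (log2 change -4.70 ± 0.89, adjusted p 0.0315). limma-voom called neither of these 2 and none of the 20 endothelial markers. Tmem100 had 0.09 ± 0.11 in that comparison. Between the controls, these markers differed in the same direction. PAS controls against CDS controls gave log2 changes of -0.11 ± 0.05 for Egfl7 and -0.54 ± 0.12 for Nppb. They were -5.61 ± 1.41 for Ttr and -3.34 ± 1.04 for Enpp2, and edgeR called none of them there. DESeq2 called 1 of 7 trabecular markers there, as did limma-voom. Nppb averaged 128 ± 9.89 CPM over the 3 PAS controls and 186 ± 23.9 CPM over the 4 CDS controls (± SD). The part of these markers in the members' values was not tested.

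Genes whose level over the 15 libraries was most like that of Tmem100 were sought among 12737 named genes with a mean of at least 1 CPM. The highest Pearson r were those of Tmed3 (0.87), a cargo receptor of the secretory route, Zfp839 (0.85), Metap2 (0.84), a methionine aminopeptidase, Ift140 (0.84), a component of intraflagellar transport, Cenpu (0.83), a centromere protein, and Ppip5k1 (0.83), an inositol pyrophosphate kinase. They were picked as the highest of all, and no test is attached. Tmed3 averaged 32.9 ± 1.10 CPM over the 4 PAS knockouts, 35.9 ± 0.93 CPM over the 3 PAS controls, 32.5 ± 0.53 CPM over the 4 CDS knockouts and 32.7 ± 0.87 CPM over the 4 CDS controls (± SD), a much smaller rise in PAS controls than that of Tmem100. The members were left out of this search, so none of them could be among the 6. These r kept the group means and so rest in part on the PAS control level that chose Tmem100. By the same measure Bmp10 came highest of the 9 other members with an r of 0.15, beside 0.66 with the group means removed.

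Around Tmem100, 19 genes lie within 500 kb, of which 7 were tested, and the window was opened after the values of Tmem100 were known. The unnamed gene ENSMUSG00000121240.2 (chromosome 11, 89962396 to 90021580, minus strand) lies 35.1 kb beyond the end of Tmem100. Its counts were 18, 26, 10 and 13 for PAS knockouts and 32, 32 and 28 for PAS controls. CDS knockouts had 18, 26, 14 and 9 counts and CDS controls 16, 13, 9 and 19 counts. The 3 PAS controls stood above all other libraries, though the counts are small.

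Its level was 0.62 ± 0.23 CPM over the 4 PAS knockouts, 1.27 ± 0.12 CPM over the 3 PAS controls, 0.43 ± 0.14 CPM over the 4 CDS knockouts and 0.40 ± 0.11 CPM over the 4 CDS controls (± SD). PAS controls against CDS controls gave a log2 change of 1.66 ± 0.32 (adjusted p 0.0234 by edgeR's quasi-likelihood test), the single call among the 7, and PAS knockouts against PAS controls gave -1.02 ± 0.31 (adjusted p 0.934). The call was lost while the log2 change stayed near its size, at 1.66 with the compared groups alone (adjusted p 0.0601), at 1.63 with the endothelial sum as a covariate (adjusted p 0.194), and at 1.497 to 1.71 without any one of CDS controls 2, 3 and 4 or any one of the PAS controls (adjusted p 0.0565 to 0.106).

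A second unnamed gene, ENSMUSG00000137991.1 (chromosome 11, 89945252 to 89948552, plus strand), begins 17.9 kb beyond Tmem100. Its counts were 6, 3, 4 and 4 for PAS knockouts and 10, 11 and 9 for PAS controls. CDS knockouts had 4, 8, 9 and 7 counts and CDS controls 5, 4, 8 and 14. In raw counts the PAS controls lay at or above all others except CDS control 4, and in CPM they lay above all other libraries. This gene passed the filter on low counts only through the PAS controls, so its place above the other libraries followed from the filter. Its log2 changes, -1.36 for PAS knockouts against PAS controls and 0.95 for PAS controls against CDS controls, are therefore a description without a test.

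On the other side, Pctp, a phosphatidylcholine transfer protein, averaged 35.3 ± 2.99 CPM over the 4 PAS knockouts, 40.1 ± 7.81 CPM over the 3 PAS controls, 33.0 ± 1.03 CPM over the 4 CDS knockouts and 34.1 ± 2.49 CPM over the 4 CDS controls (± SD), with a log2 change of 0.23 ± 0.10 for PAS controls against CDS controls (adjusted p 0.477 by edgeR's test). Gm45716, Mmd, Hlf and Stxbp4, which lie 151 to 440 kb downstream, had log2 changes of -0.08, -0.06, -0.10 and -0.01 in that comparison, none of them called. The PAS controls of Pctp, at 31.2 to 46.0 CPM, had the highest mean of the 4 groups but overlapped the others. Of the 7 neighbours, the 2 unnamed genes had PAS controls that did not overlap CDS controls. For ENSMUSG00000137991.1 this followed from the filter, and it cannot be set beside the 9.46% of all tested genes that show it. The other, ENSMUSG00000121240.2, was the 1 called.

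**Figure D5:**
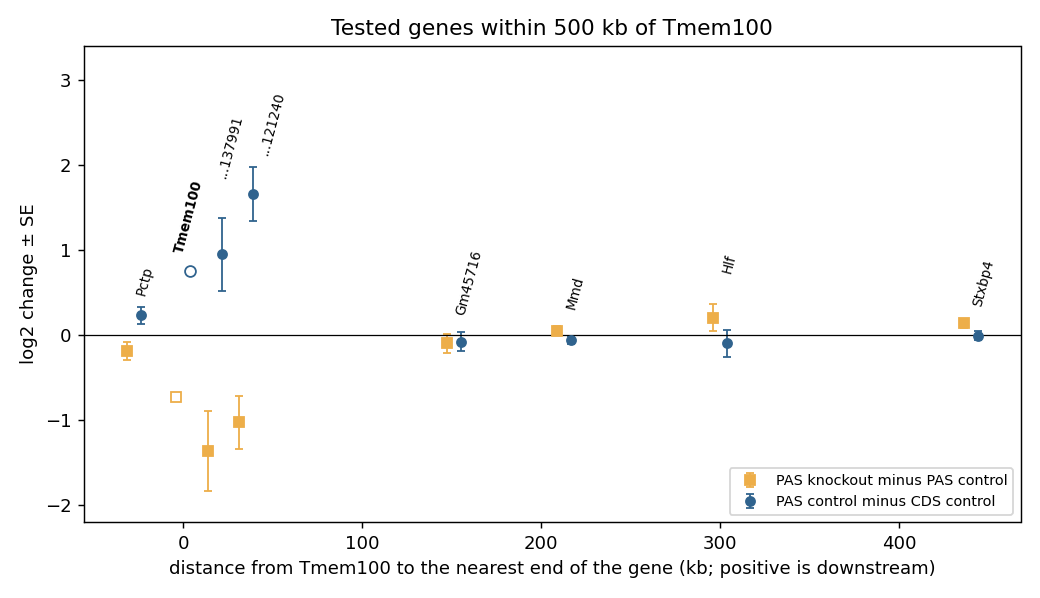
Log2 change with SE (y axis) against distance from Tmem100 in kb (x axis) for the 7 tested neighbours in 2 comparisons (colours), with Tmem100 as open symbols without an error bar. The unnamed neighbours, labelled by the end of their identifiers, have 0.95 and 1.66 in PAS controls against CDS controls, and the 4 genes farther downstream have -0.10 to -0.01. The unnamed neighbour at 0.95 passed the filter on low counts only through the PAS controls.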

How the data were processed

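The values deposited by the authors are unnormalised counts of fragments for each gene, made with featureCounts 2.1.1 on GENCODE release 37 for mouse (GRCm39) with no strand option, per the file headers. Reads of genes that overlap on the 2 strands cannot be told apart, and the exons of Acvrl1, Eng, Bmpr2, Id1, Id2 and Id3 overlap genes on the other strand. The submitters' processing notes list HISAT2 2.2.1 and STAR 2.7.11b without roles, and builds GRCm38 and GRCm39. Names came by identifier from GENCODE release 21, which named 51487 of 78317 genes, with 98.85% of all counts.

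Genes were kept by filterByExpr (minimum count 10) in edgeR 4.0.16, scaled by trimmed mean of M values and fitted over all 15 libraries with a mean per group (11 residual degrees of freedom) by the robust quasi-likelihood method. A gene was called where its p, adjusted by Benjamini-Hochberg over all 20269, was under 0.05. Standard errors come from the F statistic and 95% intervals from them with 11 degrees of freedom. The fit was tested on simulated data with known changes. Relations between genes used log2 CPM (prior count 2) minus the group mean, permuted exactly over all 82944 orderings of libraries within groups, two-sided. The design text calls the replicates biological, and p-values measure the spread between these samples.

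The members and gene lists were chosen with earlier results of these data known. Named were all 10 members, from each list up to 4 called genes or else the 2 most abundant, the 6 genes most like Tmem100, and Atf4. Pecam1, Cdh5, Hey2, Hes1, Bambi and the neighbours of Tmem100 were named after their values were seen. Promoters came from RefSeq (GRCm38.p6), where 6 of the 10 symbols matched. Alternatives were other scalings, no filter, DESeq2 1.42.0, limma-voom (limma 3.58.1), the compared groups alone, a replicate block, the endothelial sum as covariate and leaving out libraries. Leaving out CDS knockouts 3 and 4, and all settings for the neighbours and the 45 pairs, were chosen after seeing the data.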

Additional observations from a re-analysis of the deposited data

How the results depend on the processing

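The number of the 9 or 10 members called was 0 in the 5 comparisons under each alternative run, except that with no filter on low counts 1 (Id3) was called in PAS knockouts against CDS knockouts. None followed Tmem100 under any alternative run. Same-numbered libraries did not deviate together (r from -0.203 to 0.0957), so the numbers were not taken as pairs. The replicate block called 0 members, and it took the unnamed gene ENSMUSG00000121240.2 to a log2 change of 1.56 (adjusted p 0.0626) in PAS controls against CDS controls. The number of all genes called depended more on the method. In CDS knockouts against CDS controls it was 11, with 31 under no filter, 20 in DESeq2 and 7 with the endothelial covariate. In PAS knockouts against PAS controls it was 2, with 7 under no filter, 7 in DESeq2 and 1 with the compared groups alone. In PAS controls against CDS controls it was 29, with 201, 102 and 10 under the same settings, 13 with the endothelial covariate, and 11 to 43 when a library was left out, lowest without PAS control 1. In PAS knockouts against CDS knockouts it was 237, with 500 under no filter, 475 in DESeq2, 46 without CDS knockouts 3 and 4, and 65 to 205 when a library was left out. For the difference between the lines it was 1, with 3 under no filter, 2 in DESeq2, 2 in limma-voom and 1 to 2 when a library was left out. The cause of these shifts was not tested. Of the pairs of members, 10 positive and 4 negative passed, and leaving out a library gave 7 to 10 and 2 to 4. Without PAS knockout 2 and PAS control 3 it was 5 and 1, though r among the targets was still 0.73 to 0.92. Relative to the endothelial sum it was 9 and 1. Groups of 3 and 4 libraries and 105 to 266 counts of Acvrl1 limit what could be detected.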
